A study of Mus musculus with 10 samples.

Results

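The genes described here mark radial glia, the neural stem cells of the developing cerebral cortex, and the progenitors of the pallium, from which the cortex forms. They are a list of 29 genes, chosen for their known roles and not by a threshold on a measured value: Pax6, Emx1, Emx2, Lhx2, Gli3, Dmrta2, Dmrt3, Nr2e1, Sox1, Sox2, Sox3, Sox9, Sox21, Id4, Rfx4, Tead2, Msi1, Nes, Vim, Slc1a3, Fabp7, Ddah1, Prom1, Cdh2, Pard3, Fgfr2, Fgfr3, Ednrb and Ptprz1. Earlier results of these data were known when the list was drawn up. All 29 were found among the 38803 gene symbols of the deposited tables, and all 29 were among the 13522 genes that had at least 1 FPKM (fragments per kilobase of transcript, scaled to the sequenced total) in at least 5 libraries and were tested.

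Total RNA of the dorsal telencephalon of mouse embryos was sequenced at embryonic day 12 in 5 control and 5 mutant libraries. Controls had the genotype Rnu11WT/Flx::Emx1-cre+/- and mutants Rnu11Flx/Flx::Emx1-Cre+/-, both on the strain background C57/Bl6 - 129 SvJ. Controls thus carried a floxed copy of Rnu11 and the Cre as well, so every level is relative to tissue in which recombination of the floxed copy was possible, and tissue without Cre was not analysed here. Emx1 sequences direct Cre to progenitors of the dorsal telencephalon and their descendants, while cells that enter from elsewhere, such as blood, vessel and microglial cells, keep the floxed allele. Whether the libraries derive from different embryos is not in the labels, so all p-values measure the spread between these libraries, which may in part be technical.

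Radial glia line the ventricle, span the cortical wall with a long process and divide to give further radial glia, intermediate progenitors and neurons. Their cell bodies are joined at the ventricular surface by cadherin-based junctions, and transcription factors of the PAX, EMX, LHX and SOX families keep them pallial and undifferentiated. Rnu11 encodes the U11 small nuclear RNA, which recognises the 5' splice site of minor introns as part of the minor spliceosome. The comparison asks how the levels of these progenitor genes differ when both copies of Rnu11, and not a single copy, are open to deletion in the cells that express them.

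Rnu11 itself (chr4:132270080-132270213 in GRCm38) was measured at 2386, 2031, 2817, 1913 and 2266 FPKM in controls 1 to 5 and at 712, 473, 511, 1344 and 1421 FPKM in mutants 1 to 5. Every mutant library lay below every control, at 39.1% of the control mean (2283 ± 353 FPKM against 892 ± 458 FPKM, SD, n = 5 each, p = 0.00794 by an exact permutation of the labels, two-sided, which is the lowest p possible with 5 and 5 libraries). The fit across all genes gave Rnu11 a log2 difference of -1.50 (limma adjusted p = 0.118, Benjamini-Hochberg adjustment over 13522 genes). A level of 1 FPKM was reached by 13092 to 14229 genes per library, and rough estimates of depth lay between 9600000 fragments in control 4 and 21000000 in mutant 5. At those depths a fragment in a transcript of 2000 bases adds 0.0519 FPKM in control 4 and 0.0238 FPKM in mutant 5. The lowest level of any of the 29 genes was 2.61 FPKM, of Rfx4 in control 3.

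Libraries differed in ways that genotype does not set. Rnu12, the U12 small nuclear RNA, stood at 487 to 688 FPKM in control 5, mutant 4 and mutant 5 and at 5.91 to 33.8 FPKM in the other 7 libraries. These are called the second and the first set below. Rnu11 in mutants also differed between the sets. It was at 473 to 712 FPKM in mutants 1 to 3 of the first set and at 1344 and 1421 FPKM in mutants 4 and 5 of the second. Markers of the ventral telencephalon summed to 93.0 FPKM in control 4, against 7.19 to 36.1 FPKM in the other 9 libraries. Because the second set holds 1 control, results are also given within the first set, with the set as a term in the fit, and without control 4.

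None of the 29 genes passed the threshold of an adjusted p of 0.05 in either direction (limma on log2(FPKM + 1), 5 mutants against 5 controls). Of all 13522 tested genes, 21 passed, which is 0.155%, with 12 higher (0.0887%) and 9 lower (0.0666%) in mutants. After median ratio scaling 30 genes passed, 11 higher and 19 lower, with none of the 29 among them, and the median of all genes moved from 0.11 to 0.00. At an unadjusted p under 0.05 there were 3 of the 29, Pax6, Fabp7 and Ddah1, all higher in mutants. That is 10.3% of the genes, against 8.76% of all tested genes in either direction and 7.69% as higher, a share near the background. None was lower at that p, beside 1.07% of all tested genes. The median log2 difference of the 29, mutant minus control, was 0.10, beside 0.11 over all tested genes, and single genes lay between -0.06 and 0.55. After median ratio scaling the median of the 29 was -0.02. A difference above 0 was seen for 19 of the 29, beside 75.7% of all tested genes, and 14 of the 29 lay above the median of all genes. Fold changes on this scale understate the change of low genes, and in whole tissue fewer cells of a type and less RNA per cell cannot be told apart.

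The intervals say how large a difference could have been missed, given the spread between libraries in this fit. The fit had no term for the library set, and its intervals do not cover the choice of scaling or of libraries. The 95% interval of the log2 difference stayed between -1 and 1 for 28 of the 29 genes (93.3% of all tested genes), with Emx2 as the exception. That is a 2-fold difference of FPKM + 1 either way. The fold in FPKM itself is larger, most of all for low genes such as Rfx4 and Sox1. The interval stayed within a 1.5-fold difference of FPKM + 1 either way for 24 of the 29 (70.5% of all tested genes). The other 5 were Emx2, Fabp7, Ddah1, Cdh2 and Ptprz1. The count of all genes that passed moved from 21 to between 2 and 79 when a library was left out. Omitting control 1, control 2, mutant 2 or mutant 3 gave 2 genes, and omitting control 3 gave 4. Omitting mutant 1, mutant 5 or control 4 gave 9, 10 and 11, mutant 4 gave 26, and control 5 gave 79. The count among the 29 genes was 0 in each of those fits.

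**Figure D1:**
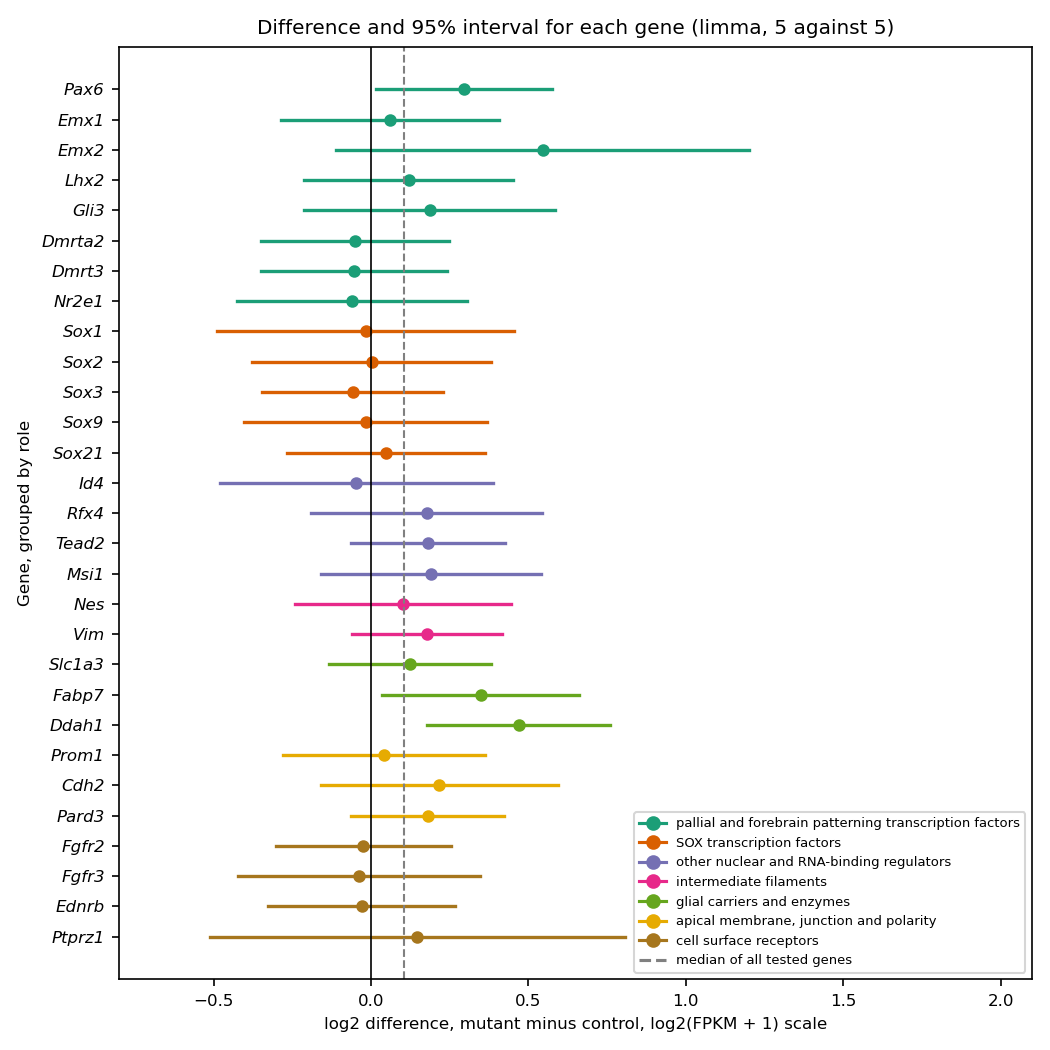
Log2 difference between mutant and control for each of the 29 genes (points) with its 95% interval (lines), on the log2(FPKM + 1) scale, from limma over 5 libraries per group, with genes coloured by role. The dashed line is the median of all tested genes at 0.11, and the intervals of Pax6, Fabp7 and Ddah1 lie above 0.

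By control mean, Vim was highest at 283 FPKM and ranked 337 of 13522, followed by Fabp7 at 179, Cdh2 at 81.7, Id4 at 78.6, Lhx2 at 59.9 and Tead2 at 55.3 FPKM. At the other end Rfx4, ranked 9575, averaged 3.96, Sox1 4.75, Dmrt3 5.39, Sox9 6.91 and Ddah1 7.25 FPKM. FPKM is scaled to transcript length, so levels of different genes can be set side by side. Neighbours in this order often overlapped over their libraries, as Cdh2 and Id4 did (59.6 to 110 against 51.5 to 123 FPKM in controls), while Vim and Fabp7 did not (248 to 309 against 141 to 214 FPKM). The spread between libraries was much the same as for other genes. The median coefficient of variation of the 29 was 22.2% in controls and 14.6% in mutants, and that of all tested genes 21.2% and 16.0%.

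**Figure D2:**
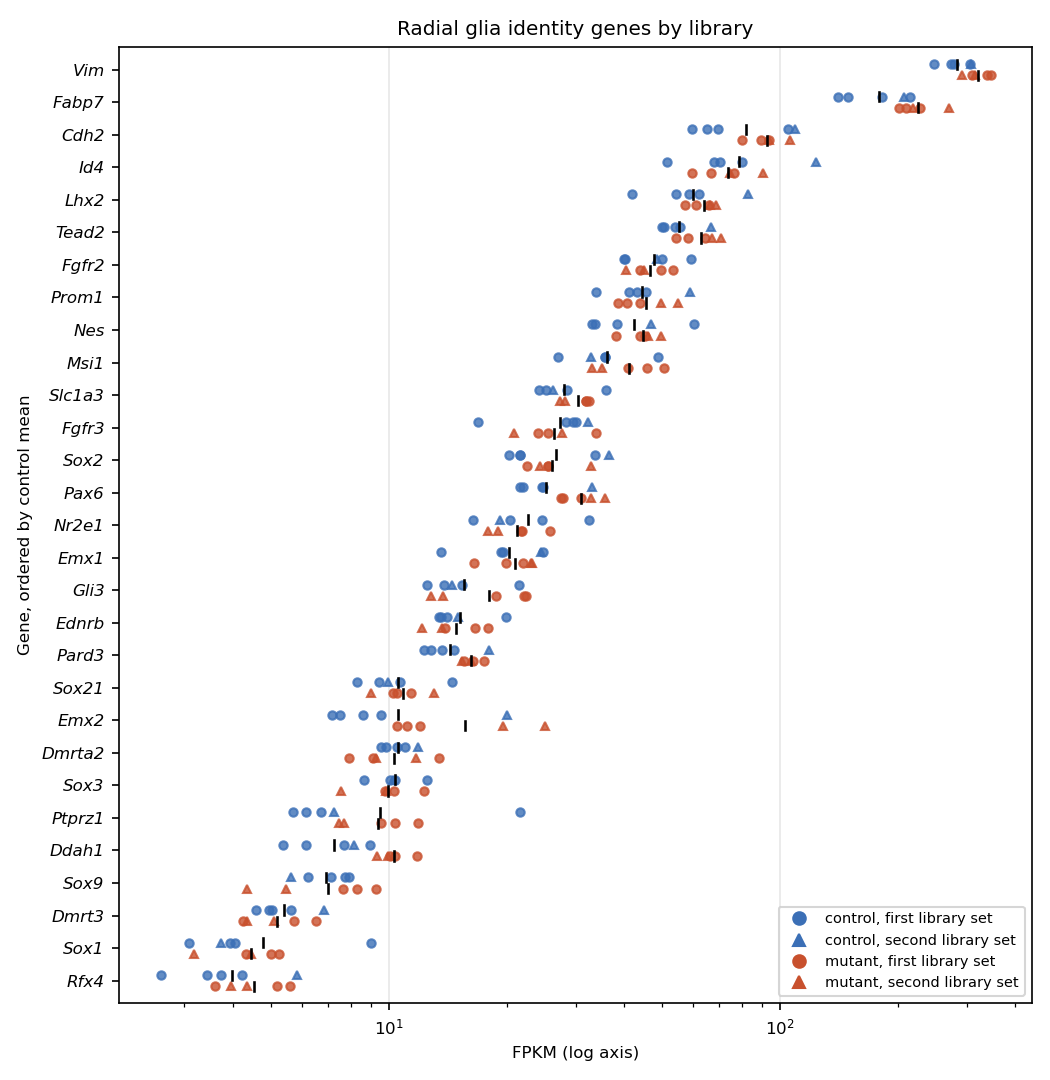
FPKM (log axis) of each of the 29 genes in 10 libraries, ordered by control mean, with controls in blue, mutants in red, the first library set as circles, the second as triangles and group means as black ticks. Blue and red overlap for every gene except Ddah1, and a single blue circle lies far to the right for Ptprz1 and Sox1.

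For the genes on which the comparison turns, the sequence just before the transcription start is shown so that a reader can see what stands there. Ddah1, Pax6 and Fabp7 had the 3 smallest p-values and Ptprz1 the widest spread between control libraries. RefSeq promoter windows of GRCm38.p6, 250 bases before to 50 after each start, matched 25 of the 29 genes with 31 windows, and Msi1, Sox9, Cdh2 and Sox3 had none. Each sequence is on the plus strand, 5' to 3', and ends before the annotated gene start. Capitals mark matches on either strand to the GC box (GGGCGG), the CCAAT box, the TATA box (TATAAA), the core bound by RBPJ (TGGGAA), an E-box (CAGCTG), the SOX core (ACAATG) and the core of the X-box that RFX proteins bind (GTTGCC). A match is a description of letters and not evidence of binding.
Ddah1, chr3:145758442-145758674: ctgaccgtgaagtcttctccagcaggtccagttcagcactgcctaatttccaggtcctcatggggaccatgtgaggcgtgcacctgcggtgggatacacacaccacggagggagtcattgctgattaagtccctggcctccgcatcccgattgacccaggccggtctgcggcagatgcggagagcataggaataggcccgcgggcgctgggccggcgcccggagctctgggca
Pax6, chr2:105668646-105668895: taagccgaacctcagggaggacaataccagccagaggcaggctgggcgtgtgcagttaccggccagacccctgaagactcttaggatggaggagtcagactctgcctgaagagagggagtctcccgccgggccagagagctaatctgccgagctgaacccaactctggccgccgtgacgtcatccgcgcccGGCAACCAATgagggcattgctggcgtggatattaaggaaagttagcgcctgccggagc
Fabp7, chr10:57784673-57784880: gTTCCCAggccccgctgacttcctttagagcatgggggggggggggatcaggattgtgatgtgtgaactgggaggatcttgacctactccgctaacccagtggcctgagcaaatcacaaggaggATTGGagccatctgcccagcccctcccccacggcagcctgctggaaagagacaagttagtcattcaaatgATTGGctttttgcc
Ptprz1, chr6:22875252-22875501: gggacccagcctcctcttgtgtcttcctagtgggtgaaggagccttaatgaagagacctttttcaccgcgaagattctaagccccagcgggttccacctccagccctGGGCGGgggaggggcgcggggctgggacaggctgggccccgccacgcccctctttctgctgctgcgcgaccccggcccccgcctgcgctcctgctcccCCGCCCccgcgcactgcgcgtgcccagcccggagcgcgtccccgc
The stretch before Ddah1 held none of the 7 motifs. That before Pax6 held an X-box core (GGCAAC) and a CCAAT box that share a base, 59 and 54 bases before the RefSeq start. Before Fabp7 stood an RBPJ core (TTCCCA) at 249 bases and CCAAT boxes on the other strand at 126 and 56 bases, and before Ptprz1 a GC box on each strand at 143 and 45 bases.

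Across the 31 windows of these genes, 48.4% held a GC box, against 35.7% of all 32851 windows in the table. The CCAAT box was in 48.4% against 37.4%, the RBPJ core in 32.3% against 25.6%, and the X-box core in 16.1% against 12.5%. The TATA box (9.7% against 13.6%), the SOX core (9.7% against 12.6%) and the E-box (6.5% against 16.3%) had lower shares than among all windows. The windows of these genes were also richer in G and C, with a median of 63.7% against 52.7%, and held a median of 20 CpG against 7, and these differences were not tested. Base composition changes how often each motif is met, so the shares are descriptions only.

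The transcription factors that pattern the forebrain and pallium came first. Of the 8, none passed, and their median log2 difference was 0.09. Pax6, the factor that sets pallial progenitors apart from ventral ones (chr2:105668900-105697364), was measured at 24.7, 21.7, 22.0, 24.8 and 33.1 FPKM in controls 1 to 5 and at 27.5, 31.0, 27.9, 32.9 and 35.7 FPKM in mutants 1 to 5. Only control 5 lay among the mutants, and it belongs to the second set, in which Pax6 was higher in all 3 libraries (32.9 to 35.7 FPKM) than in any library of the first (21.7 to 31.0 FPKM). The means were 25.2 ± 4.63 and 31.0 ± 3.45 FPKM, a log2 difference of 0.30 (SE 0.13, 95% interval 0.02 to 0.58, limma adjusted p = 0.561). Relative to the median of all genes it was 0.19, and after median ratio scaling 0.18. Within the first set, where the 3 mutants lay above all 4 controls, it was 0.30 (limma adjusted p = 0.194).

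Emx2, a homeodomain factor that patterns the cortex along its area axes (chr19:59458372-59465357), had the largest difference of the 29, with a standard error close to that of Ptprz1, the least precise. Controls 1 to 5 had 9.52, 7.52, 7.13, 8.57 and 20.0 FPKM and mutants 1 to 5 had 12.0, 10.5, 11.2, 25.0 and 19.6 FPKM. The 3 libraries of the second set, of both genotypes, stood at 19.6 FPKM or more and the other 7 at 12.0 or less. Over all libraries the means were 10.6 ± 5.37 and 15.6 ± 6.40 FPKM and the log2 difference 0.55 (SE 0.30, 95% interval -0.11 to 1.20, limma adjusted p = 0.62). Within the first set the 3 mutants lay above the 4 controls, with a difference of 0.41 (limma adjusted p = 0.153), and with the set as a term it was 0.34. Emx2os, an RNA from the opposite strand that shares 264 exonic bases with Emx2, stood at 1.52 to 3.49 FPKM in controls. Whether reads were assigned by strand is not stated.

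Emx1, the paralogue whose regulatory sequences drive the Cre here (chr6:85187438-85204462), was at 24.7, 19.6, 19.3, 13.6 and 24.4 FPKM in controls and at 16.5, 19.9, 22.0, 23.1 and 23.2 FPKM in mutants. The groups overlapped almost fully, control 4 was the lowest library, and the log2 difference was 0.06 (95% interval -0.29 to 0.41, limma adjusted p = 0.931). Lhx2, a LIM homeodomain factor that keeps progenitors cortical (chr2:38339281-38369733), was at 62.0, 54.3, 58.5, 41.9 and 82.9 FPKM in controls and at 57.1, 65.9, 61.1, 68.5 and 66.2 FPKM in mutants. Both its lowest and its highest value came from controls, control 4 and control 5, and the difference was 0.12 (95% interval -0.21 to 0.45, limma adjusted p = 0.833). After median ratio scaling the differences of Emx1 and Lhx2 were -0.06 and -0.0023, on the other side of 0.

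Gli3, the Hedgehog pathway factor that is needed for dorsal identity (chr13:15463235-15730026), was at 13.8, 15.4, 12.5, 21.5 and 14.5 FPKM in controls and at 22.2, 22.4, 18.7, 13.8 and 12.8 FPKM in mutants. Mutants 1 to 3 and control 4 were high, and the second set lay within the range of controls 1 to 3. The difference was 0.19 over all libraries (95% interval -0.21 to 0.58) and 0.42 in the first set (limma adjusted p = 0.236). Nr2e1, also called Tlx, an orphan nuclear receptor of neural stem cells, ranged from 16.4 to 32.5 FPKM in controls and from 17.9 to 25.8 FPKM in mutants (log2 difference -0.06). Dmrta2 and Dmrt3, a pair of DM domain factors of the medial pallium, averaged 10.5 ± 0.928 and 5.39 ± 0.878 FPKM in controls and 10.3 ± 2.25 and 5.17 ± 0.959 FPKM in mutants. Both had a log2 difference of -0.05, with intervals from -0.35 to 0.25 and from -0.35 to 0.24.

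Of the 5 SOX transcription factors, a family that maintains neural progenitors and guides their differentiation, none passed and the median difference was -0.02. Sox2 (chr3:34650405-34652461) was at 21.7, 20.3, 21.6, 33.7 and 36.4 FPKM in controls and at 22.6, 25.5, 25.6, 32.8 and 24.4 FPKM in mutants. Control 4 and control 5 were the highest libraries of all, and the other 3 controls were the lowest. The log2 difference was 0.00 with an interval from -0.38 to 0.38 (limma adjusted p = 0.998), and it was 0.20 in controls 1 to 3 against mutants 1 to 3. Sox1 (chr8:12395295-12400126), a close relative, was at 3.09, 3.92, 4.04, 8.98 and 3.72 FPKM in controls and at 4.99, 4.30, 5.24, 4.44 and 3.18 FPKM in mutants. Control 4 stood apart, and the difference was -0.02 with it and 0.20 without it (limma adjusted p = 0.988 and 0.567).

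Sox9, which acts in the onset of neural stem cell character and in gliogenesis (chr11:112782224-112787760), was at 7.11, 7.74, 6.20, 7.89 and 5.61 FPKM in controls and at 8.30, 9.25, 7.62, 5.45 and 4.34 FPKM in mutants. It was the only one of the 29 to be lower in all 3 libraries of the second set (4.34 to 5.61 FPKM) than in any of the first (6.20 to 9.25 FPKM), beside 6.28% of all tested genes. Its difference was -0.02 over all libraries and 0.19 in the first set (limma adjusted p = 0.984 and 0.417). Sox3, on the X chromosome, averaged 10.4 ± 1.39 FPKM in controls and 9.96 ± 1.71 FPKM in mutants (log2 difference -0.06). Sox21, a SOX protein that favours the exit from the progenitor state, averaged 10.6 ± 2.36 and 10.8 ± 1.5 FPKM (log2 difference 0.05, and -0.07 after median ratio scaling).

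The 4 other regulators are Id4, an inhibitor of bHLH factors, Rfx4, a factor of ciliary and midline genes, Tead2, the DNA-binding partner of YAP, and Msi1, an RNA-binding protein of neural stem cells. Their median difference was 0.18 and none passed. Id4 was at 80.1, 67.9, 70.1, 51.5 and 123 FPKM in controls and at 59.5, 76.4, 66.8, 90.7 and 74.5 FPKM in mutants, so that controls held both extremes (log2 difference -0.05, 95% interval -0.48 to 0.39). Tead2 was at 55.7, 50.5, 49.8, 53.9 and 66.5 FPKM in controls and at 54.1, 64.4, 58.1, 66.9 and 70.6 FPKM in mutants, with the 3 libraries of the second set on top (log2 difference 0.18, limma adjusted p = 0.654). Msi1 ranged from 27.1 to 48.8 FPKM in controls and from 33.1 to 50.4 FPKM in mutants (log2 difference 0.19), and Rfx4 from 2.61 to 5.83 and from 3.60 to 5.57 FPKM (log2 difference 0.18). Control 4 was the highest control for Msi1 and control 5 for Tead2, Id4 and Rfx4.

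Nes and Vim encode the intermediate filaments nestin and vimentin that fill the radial process. Nes (chr3:87971078-87980451) was at 33.1, 38.4, 33.7, 60.2 and 46.7 FPKM in controls and at 38.2, 45.2, 43.8, 49.6 and 46.1 FPKM in mutants. Control 4 was the highest of the 10 libraries, and the mutants lay within the range of the controls (log2 difference 0.10, limma adjusted p = 0.862, and -0.02 after median ratio scaling). Vim (chr2:13573927-13582826) was at 279, 274, 248, 306 and 309 FPKM in controls and at 310, 338, 345, 315 and 291 FPKM in mutants. All mutants but mutant 5 lay above all controls, by a small margin. The means were 283 ± 25.1 and 320 ± 22.0 FPKM (log2 difference 0.18, 95% interval -0.06 to 0.42, limma adjusted p = 0.654), and after median ratio scaling the difference was 0.05.

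The 3 genes of glial carriers and enzymes had the highest median difference of the 7 role groups, 0.35, and held 2 of the 3 genes with an unadjusted p under 0.05. Ddah1, the enzyme that breaks down asymmetric dimethylarginine, an inhibitor of nitric oxide synthase (chr3:145758675-145894277), was at 5.35, 7.66, 6.15, 8.93 and 8.15 FPKM in controls 1 to 5 and at 10.4, 10.05, 11.8, 9.93 and 9.34 FPKM in mutants 1 to 5. It was the only one of the 29 whose groups did not overlap, with every mutant above every control, which is 3.45% of the genes against 1.52% of all tested genes. None was lower in every mutant, beside 0.377% of all tested genes. The mutant mean of 10.3 ± 0.914 FPKM was 142% of the control mean of 7.25 ± 1.47 FPKM, with a log2 difference of 0.47 (SE 0.13, 95% interval 0.18 to 0.76). Its unadjusted p was 0.00415, and with adjustment over all genes it did not pass (limma adjusted p = 0.333). The difference was 0.36 relative to the median of all genes, 0.57 in the first set (limma adjusted p = 0.139) and 0.54 without control 4 (limma adjusted p = 0.2).

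Fabp7, the brain lipid-binding protein of radial glia and a known target of Pax6 and of Notch signalling (chr10:57784881-57788450), was at 183, 141, 214, 149 and 207 FPKM in controls and at 228, 210, 202, 219 and 271 FPKM in mutants. Controls 3 and 5 reached into the range of the mutants, and controls 2 and 4 were lowest. The means were 179 ± 33.2 and 226 ± 26.9 FPKM (log2 difference 0.35, SE 0.14, 95% interval 0.03 to 0.66, limma adjusted p = 0.534), and after median ratio scaling the difference was 0.22. Slc1a3, the glutamate transporter GLAST, ranged from 24.1 to 35.8 FPKM in controls, with control 4 highest, and from 27.4 to 32.4 FPKM in mutants (log2 difference 0.12, limma adjusted p = 0.777).

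**Figure D3:**
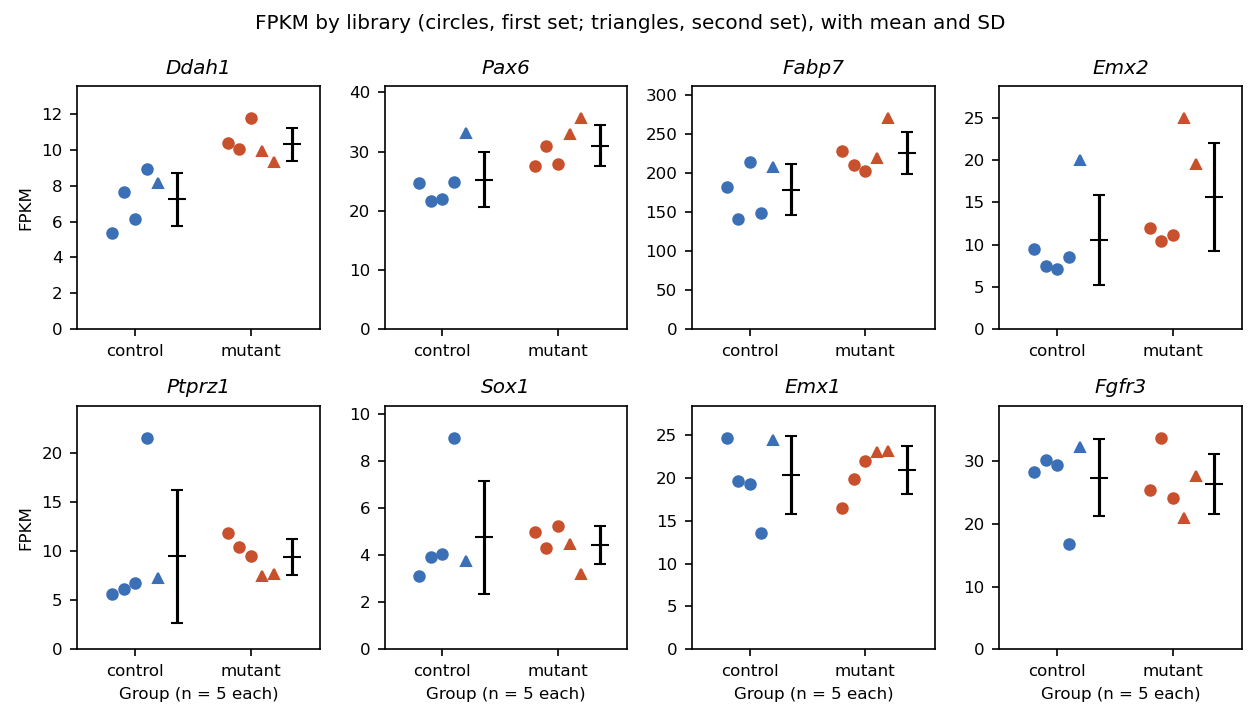
FPKM by library of 8 genes in controls (blue) and mutants (red), with circles for the first library set, triangles for the second, and bars for the mean and SD of 5 libraries. Every mutant lies above every control for Ddah1, control 5 lies with the mutants for Pax6 and Emx2, and control 4 stands apart for Ptprz1 and Sox1 (high) and for Fgfr3 (low).

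The ventricular surface and its junctions were represented by Prom1, Cdh2 and Pard3. Cdh2, the N-cadherin of the adherens junctions, was at 65.2, 69.6, 59.6, 105 and 110 FPKM in controls and at 93.6, 89.6, 80.0, 106 and 93.6 FPKM in mutants. The controls fell into 3 low and 2 high libraries, the latter control 4 and control 5, and the mutants lay between them or level with the high ones (log2 difference 0.22, 95% interval -0.16 to 0.59, limma adjusted p = 0.731). Pard3, the PAR complex scaffold of the apical domain (chr8:127063893-127612286), was at 13.7, 12.8, 12.3, 14.7 and 18.1 FPKM in controls and at 17.5, 15.5, 16.4, 15.4 and 16.2 FPKM in mutants. Only control 5 reached the mutants, and the difference was 0.18 (limma adjusted p = 0.654). Prom1, the prominin of apical membrane protrusions, averaged 44.5 ± 9.09 and 45.5 ± 6.66 FPKM (log2 difference 0.04, and -0.08 after median ratio scaling).

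The receptors on the radial glial surface are Fgfr2 and Fgfr3, which bind fibroblast growth factors, Ednrb, which binds endothelins, and Ptprz1, a receptor tyrosine phosphatase that binds pleiotrophin. None of the 4 passed, and the median difference was -0.03. Ptprz1 (chr6:22875502-23052916) was at 5.67, 6.14, 6.70, 21.6 and 7.23 FPKM in controls and at 11.9, 10.4, 9.53, 7.47 and 7.69 FPKM in mutants. Control 4 was highest of all libraries, and every mutant lay above the other 4 controls. With control 4 the means were 9.47 ± 6.80 and 9.39 ± 1.85 FPKM and the log2 difference 0.15 (95% interval -0.51 to 0.81, limma adjusted p = 0.902). Without it the difference was 0.47 (limma adjusted p = 0.282).

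Fgfr3 (chr5:33721674-33737068) was at 28.4, 30.2, 29.5, 16.9 and 32.3 FPKM in controls and at 25.5, 33.8, 24.1, 20.9 and 27.6 FPKM in mutants. Here control 4 was the lowest library, and the difference was -0.04 with it and -0.20 without it (limma adjusted p = 0.96 and 0.56). Ednrb was at 13.4, 14.1, 13.6, 19.9 and 15.0 FPKM in controls and ranged from 12.1 to 17.9 FPKM in mutants, with control 4 highest (log2 difference -0.03). Fgfr2 ranged from 39.9 to 59.3 FPKM in controls, with control 4 highest, and from 40.4 to 53.2 FPKM in mutants (log2 difference -0.02).

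Control 4 held the highest of the 10 values for 8 of the 29 genes, Nr2e1, Sox1, Sox21, Nes, Slc1a3, Fgfr2, Ednrb and Ptprz1, which is 27.6% against 19.7% of all tested genes. It held the lowest for 4, Emx1, Lhx2, Id4 and Fgfr3, which is 13.8% against 8.76%. Markers of the ventral telencephalon moved with that library. Of the 14 listed, among them Dlx, Gsx and Gad genes, 13 were highest in control 4, and their sum was 93.0 FPKM there against at most 14.3 FPKM in the other controls and 9.90 to 36.1 FPKM in mutants. Gsx1, Gsx2, Nkx2-1 and Lhx8 were listed at 0 in some library, and the part of these cells in the values of control 4 was not tested.

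Control 5 was the highest of the 10 libraries for another 8 genes, Lhx2, Dmrt3, Sox2, Id4, Rfx4, Prom1, Cdh2 and Pard3, which is 27.6% against 25.6% of all tested genes. In 26 of the 29 the highest control was control 4 or control 5, against 79.8% of all tested genes. Across the library sets, Pax6, Emx2, Lhx2, Tead2 and Prom1 were higher in all 3 libraries of the second set than in all 7 of the first, which is 17.2% against 15.5% of all tested genes. The genes thus shared in a difference between the sets about as often as other genes did.

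**Figure D4:**
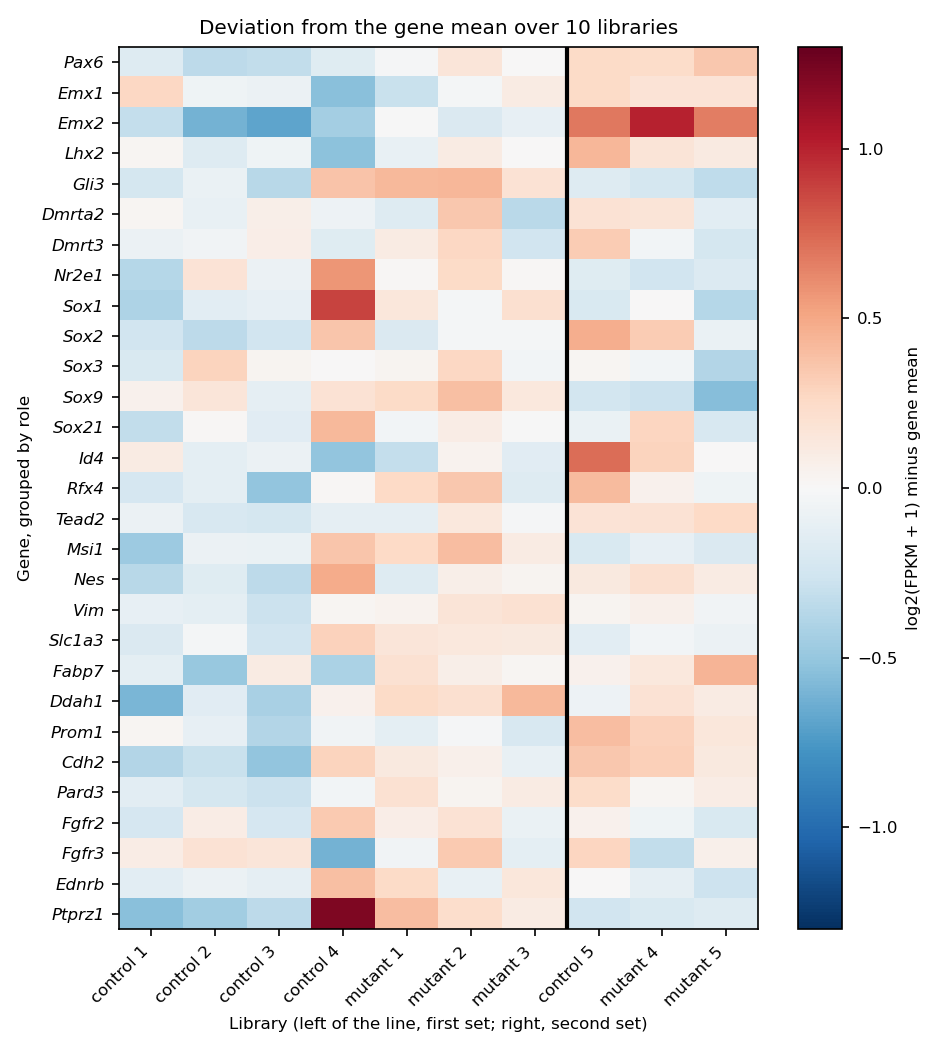
Deviation of log2(FPKM + 1) from the mean of each gene over 10 libraries, with genes grouped by role and the second library set to the right of the line. Control 4 is dark red for Ptprz1 and Sox1 and blue for Emx1, Lhx2, Id4 and Fgfr3, and Emx2 is red in all 3 libraries of the second set.

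Within the first set, 5 of the 29 genes, Pax6, Emx2, Vim, Ddah1 and Pard3, were higher in the 3 mutants than in the 4 controls, which is 17.2% against 16.7% of all tested genes. None was lower in all, beside 1.44%. None passed the threshold in that set, in which 101 genes passed (0.747%), or with the set as a term, in which 74 passed (0.547%), or with that term and control 4 left out, in which 143 passed (1.06%). The smallest limma adjusted p of the 29 in these 3 fits was that of Ddah1, at 0.139, 0.176 and 0.0637.

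A comparison of controls 1 to 3 with mutants 1 to 3, chosen after the data were seen, gave calls. Of the 29, 8 passed and all were higher in mutants, which is 27.6% against 15.0% of all tested genes passing in either direction and 14.3% passing as higher. These were Ptprz1 (log2 difference 0.69, limma adjusted p = 0.0133), Ddah1 (0.68, 0.0193), Gli3 (0.57, 0.0195), Cdh2 (0.43, 0.0295), Msi1 (0.47, 0.0433), Emx2 (0.44, 0.0439), Pard3 (0.33, 0.0452) and Pax6 (0.33, 0.0484). In that comparison the median of all genes was 0.21 and that of the 29 was 0.23. With median ratio scaling, which brings that shift to near 0, none of the 29 passed (1.45% of all tested genes did), the median of the 29 was 0.01, and Ptprz1 and Ddah1 had differences of 0.47 and 0.46 (limma adjusted p = 0.0886 and 0.132). The calls therefore depended on the choice of 6 libraries and on the scaling. Mutants 1 to 3 also had less Rnu11 RNA than mutants 4 and 5, and the part of this in the calls was not tested.

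Genes that act with these were read from the same fit, in 6 further lists with 112 tested genes in all. None passed, and 6 had an unadjusted p under 0.05, all of them higher in mutants. That is 5.36%, below the 7.69% of all tested genes that were higher at that p, and the genes named below are those with the smallest p of each list. Among 30 further radial glia genes the median difference was 0.06, with Sfrp1, a secreted Wnt modulator, at 25.0 ± 7.48 and 33.6 ± 5.46 FPKM (0.44, limma adjusted p = 0.516) and Nfia, a gliogenic factor, at 29.6 ± 5.09 and 38.9 ± 8.03 FPKM (0.38, limma adjusted p = 0.568). Among 32 paralogues of the 29 it was 0.09. Of these Ptprg, the relative of Ptprz1, ranged from 12.2 to 15.5 FPKM in controls and from 15.8 to 17.5 FPKM in mutants, without overlap (0.23, limma adjusted p = 0.553). It was the only 1 of the 112 tested genes of the further lists without overlap, beside 1.52% of all tested genes that were higher in every mutant. Dmrta1, the relative of Dmrta2, averaged 7.76 and 10.6 FPKM (0.44, limma adjusted p = 0.585).

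Among 21 genes of the apical junction and its polarity complexes the median was 0.13. Prkcz, an atypical protein kinase C that partners Pard3, averaged 3.29 ± 0.731 FPKM in controls and 4.72 ± 0.608 FPKM in mutants (0.42, limma adjusted p = 0.366), and Ctnna2, the neural alpha-catenin, 26.2 ± 9.53 and 33.7 ± 6.80 FPKM (0.39, limma adjusted p = 0.597). Among 16 FGF pathway genes it was 0.09, with the adaptor Frs3 at 1.22 ± 0.472 and 2.26 ± 0.578 FPKM (0.56, limma adjusted p = 0.357) and the ligand Fgf18 at 0.948 and 1.42 FPKM (0.34, limma adjusted p = 0.747). The 8 Hedgehog pathway genes had a median of 0.00, with the transducer Smo at 0.15 and Disp1, which releases the ligand, at 0.17.

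The 6 tested genes of the list of ligands of Ednrb and Ptprz1, which includes the enzyme genes Ece1 and Ece2, had a median of 0.19. Ptn, which encodes pleiotrophin, was at 38.6, 42.7, 42.8, 29.5 and 48.8 FPKM in controls and at 50.3, 46.3, 55.3, 58.5 and 60.9 FPKM in mutants. Only control 5 lay above a mutant, and the means were 40.5 ± 7.13 and 54.3 ± 5.96 FPKM (log2 difference 0.42, limma adjusted p = 0.368). Ece1, the enzyme that activates endothelins, averaged 7.32 ± 2.34 and 10.8 ± 4.94 FPKM (0.46, limma adjusted p = 0.689).

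Markers of the other cell types in the dissected tissue were read beside these values, and no tested marker passed. Summed over 16 neuronal markers, levels were 396 to 581 FPKM in controls and 504 to 721 FPKM in mutants, with all 16 differences above 0 and a median of 0.40. Only control 4, at 581 FPKM, reached the mutants, and the other controls summed to at most 452 FPKM. For 12 intermediate progenitor markers the sums were 171 to 200 and 201 to 214 FPKM, without overlap, and the median was 0.20. How often sums of other genes do not overlap was not computed. Microglial markers summed to 24.9 to 62.6 FPKM in controls and 38.9 to 125 FPKM in mutants, and these ranges overlapped only across the library sets. Within the first set the mutants summed to 82.5 to 125 FPKM and the controls to at most 62.6 FPKM. In the second set mutants 4 and 5 were at 38.9 and 46.7 FPKM, and control 5, its only control, at 24.9 FPKM. Over all 10 libraries the median difference of these markers was 0.68, with all 9 tested above 0. In the same fit 75.7% of all tested genes lay above 0, so most genes shared that direction. Their median of 0.11 was below those of the neuronal, intermediate progenitor and microglial markers. Ranges overlapped for markers of Cajal-Retzius cells (55.9 to 103 and 68.1 to 91.5 FPKM), choroid plexus and hem (292 to 473 and 226 to 453 FPKM), endothelium (32.8 to 53.4 and 39.9 to 68.1 FPKM), mesenchyme (65.9 to 155 and 79.3 to 191 FPKM) and erythroid cells (3910 to 9710 and 5402 to 10169 FPKM). The part of these cells in the values of the radial glia genes was not tested.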

How the data were processed

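Per the labels' protocols, Trizol was used for extraction and ribosomal RNA was removed from the stranded total RNA libraries. HISAT2 and GRCm38 (mm10) are named in the submitters' processing notes. The authors deposited a gene symbol and a length-scaled value per gene and library, read here as FPKM. No source used here gives the program, its annotation or its use of strand. FPKM holds no counts, so depth was estimated roughly from the smallest steps in the values, and no counting intervals were computed.

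The test took genes that reached 1 FPKM in 5 or more libraries, as log2(FPKM + 1), with a pseudocount of 1, and used limma 3.58.1 in R 4.3.3 (intensity trend, robust, two-sided, Benjamini-Hochberg over 13522 genes, threshold 0.05) on all 10 libraries with genotype as the term. Rnu11 was also tested by exact permutation. The fit was tested on simulated data with independent values around each gene mean. Those data held no library sets, no outlying library and no shift of all genes, so that test does not cover these features. Groups were taken from the sample titles. The 29 genes, the 6 further lists and the 9 marker lists were chosen with earlier results of these data known. Named were Rnu11, all 29 genes and, of each further list, the genes that passed or else the 2 with the smallest p. The 22 alternatives covered scaling, filter, pseudocount, model, library set, replicate block and left-out libraries, and 3 of them were chosen after the data were seen. Gene coordinates are GENCODE's for GRCm38, and promoter windows are RefSeq's for GRCm38.p6. Fgfr2 shares exons with Ctbp2 in that annotation, and Rnu11, Emx2, Fgfr3, Gli3, Id4, Prom1, Sox21 and Tead2 share exonic bases with a gene on the opposite strand, so their values are uncertain to that extent.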

Additional observations from a re-analysis of the deposited data

Results flagged for a closer look

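In 5 of 60 groups of 5 libraries, 1 library lay far from the others. Chance flags about 1 group in 20 where groups are independent, but these groups share their libraries. The same share over all tested genes was not computed, so the count is not a result about these genes. The groups were those of each of the 29 genes and Rnu11. Emx2 in control 5 was 20.0 FPKM, against 7.13 to 9.52 FPKM in the other controls. The other 4 were in control 4, where Sox1 was 8.98 FPKM (3.09 to 4.04 FPKM in the other controls), Ednrb 19.9 FPKM (13.4 to 15.0 FPKM), Ptprz1 21.6 FPKM (5.67 to 7.23 FPKM) and Fgfr3, the only low one, 16.9 FPKM (28.4 to 32.3 FPKM).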

How the results depend on the processing

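Control 5 is the only control of the second library set, and 5 libraries per group limit what could be called. None of the 29 genes passed in 21 of 22 alternatives, of which the filter at 5 FPKM tested 27 of them, without Sox1 and Rfx4. The exception was controls 1 to 3 against mutants 1 to 3, with 8, and there the count of all genes was 2023, of the further lists 18 (16.1% against 15.0% of all genes), of the 29 without overlap 12 (41.4% against 41.9%) and the median difference 0.23. With median ratio scaling of those 6 libraries the counts were 196 for all genes (1.45%) and 2 for the further lists (1.79%), and with the set term and without control 4 they were 143 (1.06%) and 3 (2.68%). The count of all genes was 2 without a filter, 35 after quantile normalization, 11 without trend and robust fitting, 74 with the set term, 101 in the first set, where 5 of the 29 (17.2% against 18.2% of all genes) did not overlap, and 2 to 79 with a library left out. Of the 29, those without overlap were 1 to 4 with a library left out. They were 2 (6.90%) without control 4 or mutant 5, against 4.15% and 2.71% of all genes, and 4 (13.8%) without control 5, against 9.24%. Scaling by median ratios moved the median of all genes from 0.11 to 0.00 and the split of calls from 12 higher and 9 lower to 11 and 19, and quantile normalization to 13 and 22. Rnu11 stood at 33.3 to 43.7% of control with a library left out.

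Replicate numbers did not pair the samples: deviations of same-numbered libraries correlated at 0.0773, 0.155, 0.236, -0.107 and 0.521, and not every library correlated best with its own number. With the replicate number as a block, 14 genes passed and none of the 29.

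Of the log2 differences of the 29 genes, 550 values kept their side of 0 and of the threshold, 8 passed it in controls 1 to 3 against mutants 1 to 3, and 78 in 17 genes changed sign. After median ratio scaling these were Emx1 -0.058, Lhx2 -0.0023, Sox2 -0.12, Sox21 -0.066, Nes -0.019 and Prom1 -0.079, and after quantile normalization Emx1 -0.031, Sox2 -0.095, Sox21 -0.079 and Prom1 -0.043. With the set term they were Sox1 0.039, Sox2 -0.070, Sox9 0.089, Prom1 -0.041 and Ednrb 0.0066, and in the first set Dmrt3 0.091, Nr2e1 0.016, Sox1 0.048, Sox3 0.056, Sox9 0.19, Id4 0.014, Fgfr2 0.062, Fgfr3 0.10 and Ednrb 0.087. In controls 1 to 3 against mutants 1 to 3 they were Emx1 -0.12, Dmrt3 0.054, Nr2e1 0.18, Sox1 0.32, Sox3 0.046, Sox9 0.23, Fgfr2 0.17 and Ednrb 0.21, and with scaling Emx1 -0.35, Lhx2 -0.17, Sox1 0.12, Sox2 -0.036, Sox9 0.010, Sox21 -0.060, Tead2 -0.070 and Prom1 -0.20. With the set term and without control 4 they were Emx1 -0.10, Lhx2 -0.040, Nr2e1 0.11, Sox1 0.23, Sox9 0.11, Prom1 -0.027, Fgfr2 0.066 and Ednrb 0.086. With a library left out, differences spanned 0 for Sox2 (-0.083 to 0.12), Sox21 (-0.027 to 0.16), Sox3 (-0.13 to 0.028), Sox9 (-0.12 to 0.12), Fgfr3 (-0.20 to 0.038), Prom1 (-0.048 to 0.15), Emx1 (-0.069 to 0.14), Nr2e1 (-0.16 to 0.076), Sox1 (-0.12 to 0.20), Fgfr2 (-0.082 to 0.058), Ednrb (-0.096 to 0.066), Dmrt3 (-0.13 to 0.022), Id4 (-0.18 to 0.13) and Dmrta2 (-0.15 to 0.030). The cause of these changes of sign was not tested.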
